A study of Homo sapiens with 4 samples.

Results

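Transcript levels of 67 genes for axon guidance receptors and ligands were followed across 4 arrays of 2 breast cancer cell lines with and without induced miR-100. The members were all genes with a probeset of their own whose symbol names an Eph receptor, an ephrin, a semaphorin, a plexin, a neuropilin, an UNC5 receptor, a netrin, a ROBO receptor or a SLIT. They are 67 of 22465 genes named on the array, and each had 1 probeset. Of these, 52 had a mean log2 signal over the 4 arrays at or above 4.035, the median of all probesets, and are called kept below, as are 14418 genes in all. The other 15 members had signals between 3.32 and 4.16 and are given by range: their induced minus control differences ran from -0.15 to 0.48 for the SUM159 pair of arrays and from -0.10 to 0.16 for the MDA-MB-231 pair.

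SUM159 and MDA-MB-231 are established lines of triple-negative breast cancer, a type that lacks estrogen receptor, progesterone receptor and HER2 amplification. Both carried a lentiviral construct, made stable by puromycin selection, whose miR-100 insert is switched on by adding a drug of the tetracycline class. There were 4 groups of 1 array each: induced SUM159 cells after 1 week with the drug, uninduced SUM159 control cells with the same construct, induced MDA-MB-231 cells and uninduced MDA-MB-231 control cells. Labels name the drug either as doxycycline or as tetracycline, and the design text names SUM149 where every sample label names SUM159, which is followed here. Cells given the drug without the construct were not analysed here, so effects of the drug and of miR-100 cannot be told apart. The labels do not say whether cells were clonal or grown as separate cultures.

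The induced microRNA is shown first, because its seed, in capitals, is the part that pairs with target transcripts. The RefSeq mature sequence (GRCh38.p14, chr11:122152275-122152296, minus strand) has 22 bases.
hsa-miR-100-5p: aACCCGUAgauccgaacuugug
The MIR100 probeset had log2 signals of 18.18 in induced and 6.56 in control SUM159 cells, and of 17.29 in induced and 8.11 in control MDA-MB-231 cells. The transcripts of the members were not searched for seed matches here.

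Axon guidance genes encode cell surface receptors and the secreted or membrane-bound cues they read, best known from growing neurons and also used by epithelial, endothelial and tumour cells. Eph receptors are receptor tyrosine kinases that bind ephrins on neighbouring cells. Semaphorins signal through plexins, with neuropilins as coreceptors for the secreted class 3 members. Netrins act through DCC, neogenin and the UNC5 receptors, and SLIT proteins through ROBO receptors. In breast tissue, netrin and SLIT signals are known to take part in shaping the gland.

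The hormone receptor genes stood below the cutoff in both lines, with ESR1 at 3.58 to 3.68 and PGR at 2.98 to 3.18. Of the listed mesenchymal genes, VIM, for an intermediate filament, stood at 15.20 to 16.23, ZEB1 at 11.14 to 11.50 and FN1 at 11.63 to 15.57. CDH2 differed between the lines, with 13.00 in induced and 12.93 in control SUM159 cells. In MDA-MB-231 it lay near the cutoff, at 4.45 in induced and 4.54 in control cells. The epithelial cadherin gene CDH1 stood at 3.77 to 4.03 and the basal keratin gene KRT5 at 3.88 to 4.07. Other epithelial genes were kept: EPCAM stood at 4.55 to 6.16, and the claudin genes CLDN3, CLDN4 and CLDN7 at 4.63 to 5.35, 4.69 to 5.25 and 5.31 to 7.78. Of 14 listed markers of blood, endothelium, neurons and Schwann cells, 11 had a probeset of their own and 2 were kept, the T cell gene CD3E (4.16 to 4.56) and the synaptic vesicle gene SYT1 (5.29 to 6.68). In bulk RNA, fewer cells that express a gene and less RNA per cell cannot be told apart. The array medians lay between 4.0 and 4.07. Probesets below the cutoff give a measure of noise: the robust SD of their induced minus control differences was 0.193 for SUM159 arrays and 0.178 for MDA-MB-231 arrays.

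**Figure D1:**
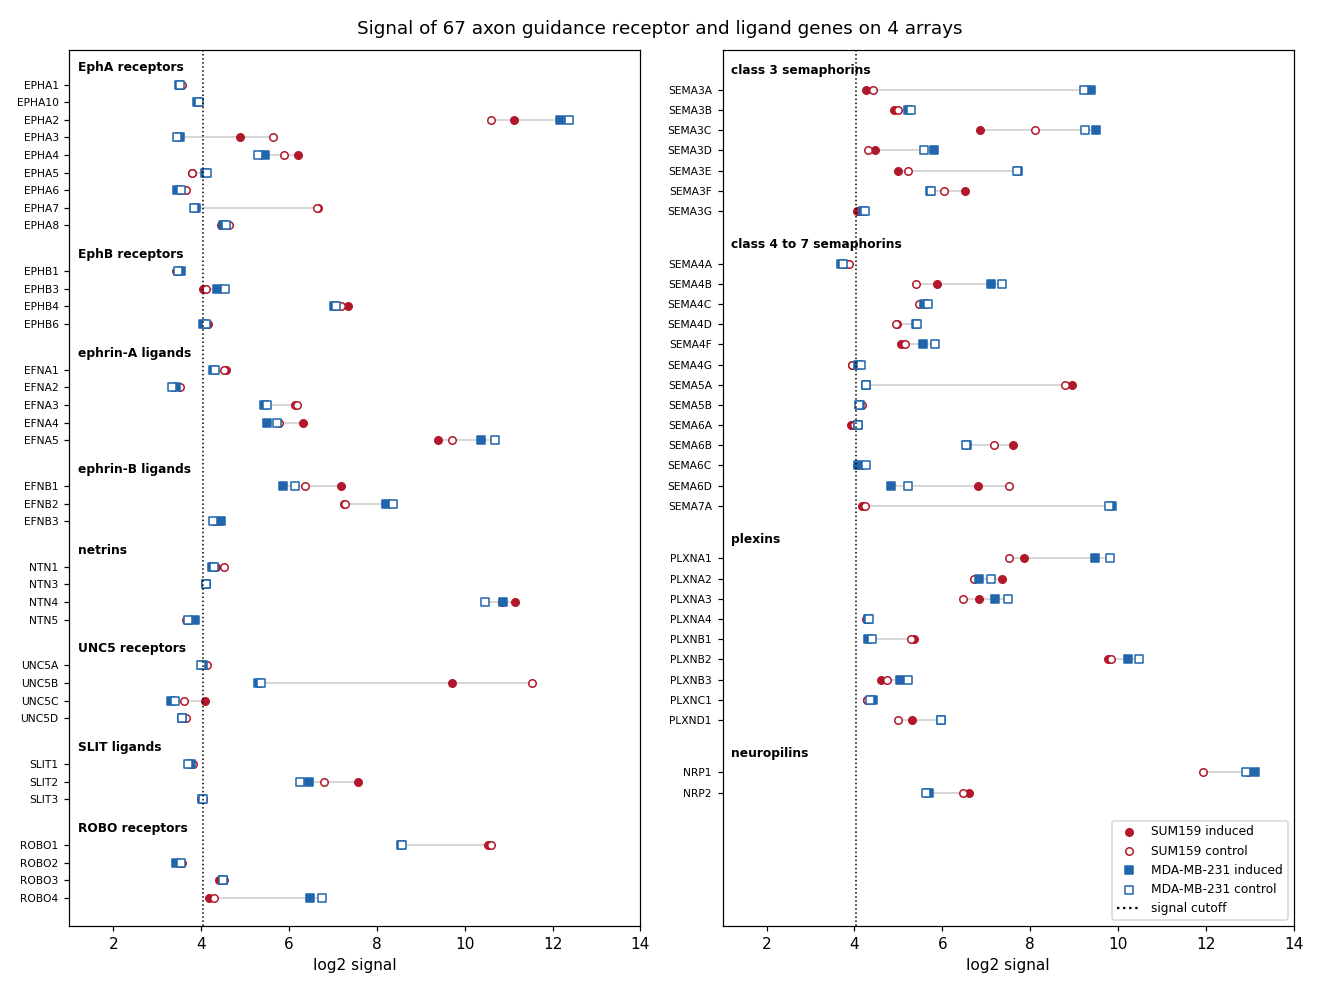
Log2 signal (x axis) of each of the 67 members (rows, by family) on the 4 arrays; filled symbols are induced and open symbols control cells, circles SUM159 and squares MDA-MB-231, and the dotted line is the cutoff of 4.035. Signals of different rows come from different probes and are not comparable, but within a row the 4 arrays are. The widest rows are SEMA7A, UNC5B, SEMA3A and SEMA5A.

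Of the 67 members, 48 were at or above the cutoff on all 4 arrays. EPHA3 and EPHA7 were above it on both SUM159 arrays and below it on both MDA-MB-231 arrays. EPHA5, SEMA4G and SEMA6A showed the reverse, but with signals of 4.16 or less. The plot of signals by family shows that many members stood at a similar level on the 4 arrays. Others differed between the lines by far more than between induced and control cells. At or past 2-fold between the lines were 6 kept members higher and 10 lower in SUM159.

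In SUM159 cells, miR-100 induction went with a lower signal of UNC5B, a netrin receptor, and of SEMA3C, a secreted semaphorin, and with a higher signal of the semaphorin coreceptor gene NRP1. Smaller differences at or past 1.5-fold were seen for EPHA3 and SEMA6D, which were lower, and for EFNB1, SLIT2 and PLXNA2, which were higher. Thus 4 of 52 kept members were higher (7.69%) and 4 lower (7.69%), where 3.95% of all kept genes were higher and 3.0% lower. Either way it was 8 members (15.4%), against 6.95% of all kept genes. The median difference of the kept members was -0.02, against 0 for all kept genes, and 0.05 after median centring of the arrays, so that it has no stable sign. With 1 array per state there was no test, and none of these differences has a replicate check.

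UNC5B encodes a receptor that repels axons from netrin and that can trigger cell death when its ligand is absent. Its log2 signal was 9.72 in induced and 11.52 in control SUM159 cells, and 5.30 in induced and 5.36 in control MDA-MB-231 cells. The SUM159 difference of -1.80, a 3.48-fold lower signal, was the lowest of all members, while the MDA-MB-231 arrays differed by -0.06. Of the other UNC5 genes, UNC5A had 4.01 in induced and 4.13 in control SUM159 cells and stood at the cutoff in MDA-MB-231. UNC5C and UNC5D were not kept, although UNC5C had 4.09 in induced against 3.61 in control SUM159 cells.

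Netrin genes differed little with induction. NTN4, the gene for a laminin-related netrin of basement membranes, had 11.15 in induced and 10.85 in control SUM159 cells, and 10.86 in induced and 10.46 in control MDA-MB-231 cells. It was thus higher in the induced array of each line, by 0.30 for the SUM159 pair and by 0.40 for the MDA-MB-231 pair, and 0.40 was the highest MDA-MB-231 difference of any kept member. NTN1, which encodes the classical netrin, had 4.33 in induced and 4.52 in control SUM159 cells and 4.25 in induced and 4.29 in control MDA-MB-231 cells, close to the cutoff on every array. NTN3 lay at 4.11 or 4.12 on each array.

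Among class 3 semaphorins, SEMA3C had 6.86 in induced and 8.12 in control SUM159 cells, a 2.40-fold lower signal, and 9.51 in induced and 9.24 in control MDA-MB-231 cells. Its difference was therefore -1.26 for the SUM159 pair and 0.27 for the MDA-MB-231 pair. The other 6 class 3 members differed by less than 1.5-fold in both lines, with SEMA3F, which encodes a neuropilin-2 ligand, at 6.52 in induced and 6.03 in control SUM159 cells. The 7 members of the class had a median difference of -0.10 for SUM159 and of 0.02 for MDA-MB-231.

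SEMA6D, which encodes a transmembrane semaphorin that binds class A plexins, had 6.81 in induced and 7.51 in control SUM159 cells, and 4.84 in induced and 5.22 in control MDA-MB-231 cells. It was lower in the induced array of both lines, with differences of -0.70 for the SUM159 pair and -0.38 for the MDA-MB-231 pair, and -0.38 was the lowest MDA-MB-231 difference of any kept member. SEMA6B, of the same class, had 7.60 in induced and 7.17 in control SUM159 cells, and 6.56 against 6.55 in induced and control MDA-MB-231 cells. Over the 10 kept members of classes 4 to 7 the median SUM159 difference was -0.01, with 5 above and 5 below 0 (7 and 3 after centring), and the median MDA-MB-231 difference was -0.06.

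Both neuropilin genes had a higher signal in induced than in control cells of each line. NRP1, whose product also binds vascular endothelial growth factor, had 12.95 in induced and 11.94 in control SUM159 cells, a 2.01-fold difference, and 13.12 in induced and 12.92 in control MDA-MB-231 cells. The induced SUM159 signal was thus at the level of the MDA-MB-231 arrays. NRP2 had 6.60 in induced and 6.47 in control SUM159 cells and 5.69 in induced and 5.64 in control MDA-MB-231 cells, differences within the noise.

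Of the plexin genes, 3 of class A were higher in induced SUM159 and lower in induced MDA-MB-231, a contrast that was not tested. PLXNA2 had 7.35 in induced and 6.72 in control SUM159 cells, and 6.83 in induced and 7.10 in control MDA-MB-231 cells. PLXNA1 had 7.85 in induced and 7.51 in control SUM159 cells, and 9.47 in induced and 9.82 in control MDA-MB-231 cells. PLXNA3 had 6.84 in induced and 6.46 in control SUM159 cells, and 7.20 in induced and 7.49 in control MDA-MB-231 cells. These are the class A plexins, the main partners of class 3 and class 6 semaphorins. The SUM159 differences of PLXNA2, PLXNA1 and PLXNA3 were 0.63, 0.34 and 0.38, and those of the MDA-MB-231 pair -0.27, -0.35 and -0.29. The remaining class A member, PLXNA4, stood at 4.26 to 4.33 and differed by -0.03 in each line. Of the 9 plexin genes, 5 were above and 4 below 0 in SUM159, against 1 above and 8 below 0 in MDA-MB-231. After median centring the counts were 7 above and 1 below in SUM159, and 2 above and 6 below in MDA-MB-231, while PLXNA1, PLXNA2 and PLXNA3 had the same signs as before. The PLXNB1 gene, whose product is a receptor of SEMA4D, had 5.35 in induced and 5.29 in control SUM159 cells and 4.30 in induced and 4.39 in control MDA-MB-231 cells.

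Within the Eph system, EFNB1 had the widest difference. This transmembrane ephrin gene had 7.18 in induced and 6.37 in control SUM159 cells, a 1.75-fold higher signal, and 5.86 in induced and 6.13 in control MDA-MB-231 cells. EFNB2 had 7.24 in induced and 7.27 in control SUM159 cells, and 8.20 in induced and 8.37 in control MDA-MB-231 cells. EFNB3 lay between 4.26 and 4.46. The 4 kept ephrin-A genes, for ligands anchored by a lipid tail, included EFNA5, with 9.40 in induced and 9.72 in control SUM159 cells and 10.38 in induced and 10.69 in control MDA-MB-231 cells. EFNA5 was lower in both induced arrays by nearly the same amount, with differences of -0.32 for the SUM159 pair and -0.31 for the MDA-MB-231 pair. EFNA4 had 6.31 in induced and 5.77 in control SUM159 cells and 5.49 in induced and 5.72 in control MDA-MB-231 cells. EFNA3 had 6.13 in induced and 6.17 in control SUM159 cells and 5.42 in induced and 5.49 in control MDA-MB-231 cells.

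On the receptor side, EPHA3 had 4.89 in induced and 5.64 in control SUM159 cells and lay below the cutoff in MDA-MB-231, at 3.51 in induced and 3.44 in control cells. EPHA2, which encodes an ephrin-A receptor that is often abundant in carcinoma cells, had 11.11 in induced and 10.59 in control SUM159 cells, and 12.16 in induced and 12.37 in control MDA-MB-231 cells. Its difference of 0.52 in SUM159 stayed under 1.5-fold. The 3 kept EphB receptor genes showed no difference with induction beyond the noise. EPHB1 was not kept, and EPHB2 is not among the members, so nothing is said of it. EPHB4, whose product is the receptor of ephrin-B2, had 7.34 in induced and 7.19 in control SUM159 cells and 7.02 in induced and 7.07 in control MDA-MB-231 cells. EPHB3 and EPHB6 had signals of 4.03 to 4.54, near the cutoff.

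SLIT2 was the only SLIT gene kept. It had 7.58 in induced and 6.79 in control SUM159 cells, a 1.73-fold higher signal, and 6.45 in induced and 6.25 in control MDA-MB-231 cells. ROBO1, which encodes its main receptor, had 10.54 in induced and 10.59 in control SUM159 cells and 8.55 in induced and 8.58 in control MDA-MB-231 cells. The ligand gene therefore differed with induction in SUM159 while the receptor gene differed by -0.05 for the SUM159 pair and -0.03 for the MDA-MB-231 pair.

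**Figure D2:**
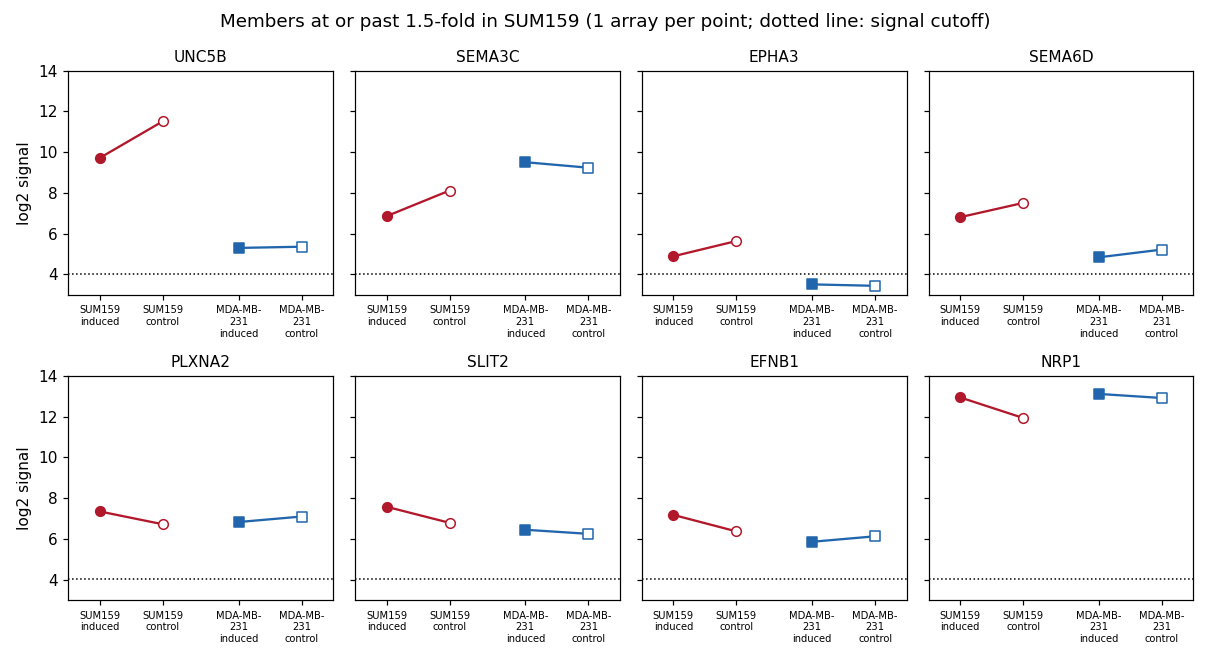
Log2 signal (y axis) of the 8 kept members at or past 1.5-fold in SUM159 on each of the 4 arrays; each point is 1 array, filled for induced and open for control cells, and the dotted line is the cutoff of 4.035. UNC5B, SEMA3C, EPHA3 and SEMA6D were lower and PLXNA2, SLIT2, EFNB1 and NRP1 higher in induced than in control SUM159 cells, while the MDA-MB-231 pairs differed by 0.38 or less.

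In MDA-MB-231 cells no member reached 1.5-fold: 0 of 52 kept members were higher and 0 lower, against 1.69% and 0.784% of all kept genes. The differences lay between -0.38 (SEMA6D) and 0.40 (NTN4), with a median of -0.035 for the members and 0.01 for all kept genes. Below 0 were 33 kept members and above it 19 (26 and 22 after centring). Either way, 2.48% of all kept genes were past 1.5-fold in this line.

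Over both lines, with limma and the cell line as a block, 0 of 52 members and 0 of 14418 genes passed a Benjamini-Hochberg adjusted p of 0.05. At an unadjusted p under 0.05, limma had 2 members (3.85%) and 3.86% of all kept genes. These were SEMA6D, with a mean difference of -0.54 ± 0.14 (SE, 2 lines; limma adjusted p = 0.918), and NTN4, with 0.35 ± 0.12 (SE, 2 lines; limma adjusted p = 0.918). Each had the same direction in both lines, which a low p in this fit nearly requires. The fit has 1 residual degree of freedom, which is how far the responses of the lines differ.

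**Figure D3:**
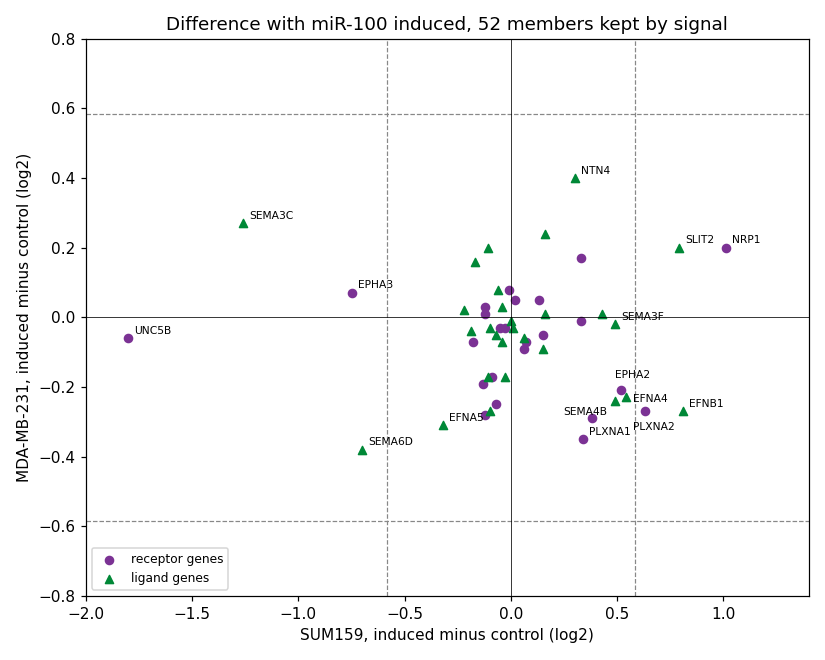
Induced minus control difference (log2) in SUM159 (x axis) and MDA-MB-231 (y axis) of the 52 kept members, circles for receptor and triangles for ligand genes; dashed lines mark 1.5-fold. Points spread along the x axis, from -1.80 for UNC5B to 1.01 for NRP1, and stay between -0.38 and 0.40 on the y axis. The group at the lower right holds EFNB1, PLXNA2, EPHA2, EFNA4, SEMA4B, PLXNA1 and PLXNA3.

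The absolute difference was larger in SUM159 than in MDA-MB-231 for 31 of 52 kept members (59.6%), against 54.5% of all kept genes. Higher in induced SUM159 and lower in induced MDA-MB-231 were 15 members (28.8%), against 22.7% of all kept genes. Receptors and ligands did not part by direction in SUM159: 2 receptor genes were past 1.5-fold higher and 2 lower, and so were 2 ligand genes each way.

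Coreceptors, other ligands and intracellular effectors of these pathways were read from a separate list of 81 names, of which 71 had a probeset of their own and 59 were kept. In SUM159, 5 of the 59 were past 1.5-fold higher and 2 lower, against 3.95% and 3.0% of all kept genes. In the MDA-MB-231 pair 0 of the 59 were past 1.5-fold, against 2.48% of all kept genes. Their median difference was 0.02 for SUM159 and -0.03 for MDA-MB-231. MAGED1, whose product binds UNC5 receptors, had 8.53 in induced and 7.14 in control SUM159 cells, and 8.76 in induced and 8.63 in control MDA-MB-231 cells. The plexin-regulated GTPase gene RRAS had 12.95 in induced and 12.19 in control SUM159 cells, and 10.66 in induced and 11.01 in control MDA-MB-231 cells. The cofilin kinase gene LIMK1 had 8.55 in induced and 7.87 in control SUM159 cells, and 8.60 in induced and 8.97 in control MDA-MB-231 cells. RRAS and LIMK1 were thus higher in induced SUM159 and lower in induced MDA-MB-231. SDCBP, which encodes syntenin, a binder of ephrin-B tails, had 12.88 in induced and 12.24 in control SUM159 cells, and 12.28 in induced and 11.99 in control MDA-MB-231 cells. The semaphorin effector gene DPYSL2 had 12.35 in induced and 13.01 in control SUM159 cells, and 12.65 in induced and 12.77 in control MDA-MB-231 cells. KDR, for a growth factor receptor that partners with neuropilin-1, had 5.33 in induced and 5.98 in control SUM159 cells. KDR also had opposite differences in the lines, with 6.01 in induced and 5.47 in control MDA-MB-231 cells. In limma over both lines 0 of these passed the adjusted threshold.

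The lines differed from each other in these families far more than induced from control cells. UNC5B, SEMA5A, EPHA7, SEMA6D and ROBO1 were higher in SUM159, and SEMA7A, SEMA3A, SEMA3E, ROBO4 and PLXNA1 were lower in SUM159 than in MDA-MB-231, each on both arrays of a line. With limma and the state as a block, 12 of 52 kept members were higher in SUM159 (23.1%) and 16 lower (30.8%), at a Benjamini-Hochberg adjusted p under 0.05, where 20.8% of all kept genes were called higher and 23.8% lower. Either way this is 28 members (53.8%), against 44.6% of all kept genes. Since a gene could be kept through the line in which it is high, these counts are a description. EPHA3 and EPHA7, both among the 12 called higher, were kept in this way. At or past 2-fold were 6 members higher and 10 lower in SUM159, 16 of 52 (30.8%), against 25.3% of all kept genes. The p-values set the difference between the lines against how unequally they responded to induction, and not against replicate cultures. Limma also draws the spread of each gene towards that of all kept genes. PLXNA4, which differed by -0.03 in each line, thus still had an SE of 0.11 for its line difference. Each array was also left out in turn, with the block dropped, which leaves 1 array for 1 line. The only residual is then the induced minus control difference of the other line. A call lost in these fits, here and below, can therefore mark a wide induced minus control difference in that line. It can also follow from the smaller number of arrays. SEMA4D lost its call although it differed with induction by only 0.01 in SUM159 and -0.03 in MDA-MB-231. A call that held is not a replicate check. Without the induced and without the control SUM159 array, the line difference was -5.60 and -5.66 for SEMA7A. For SLIT2 it was 0.44 and 1.23.

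**Figure D4:**
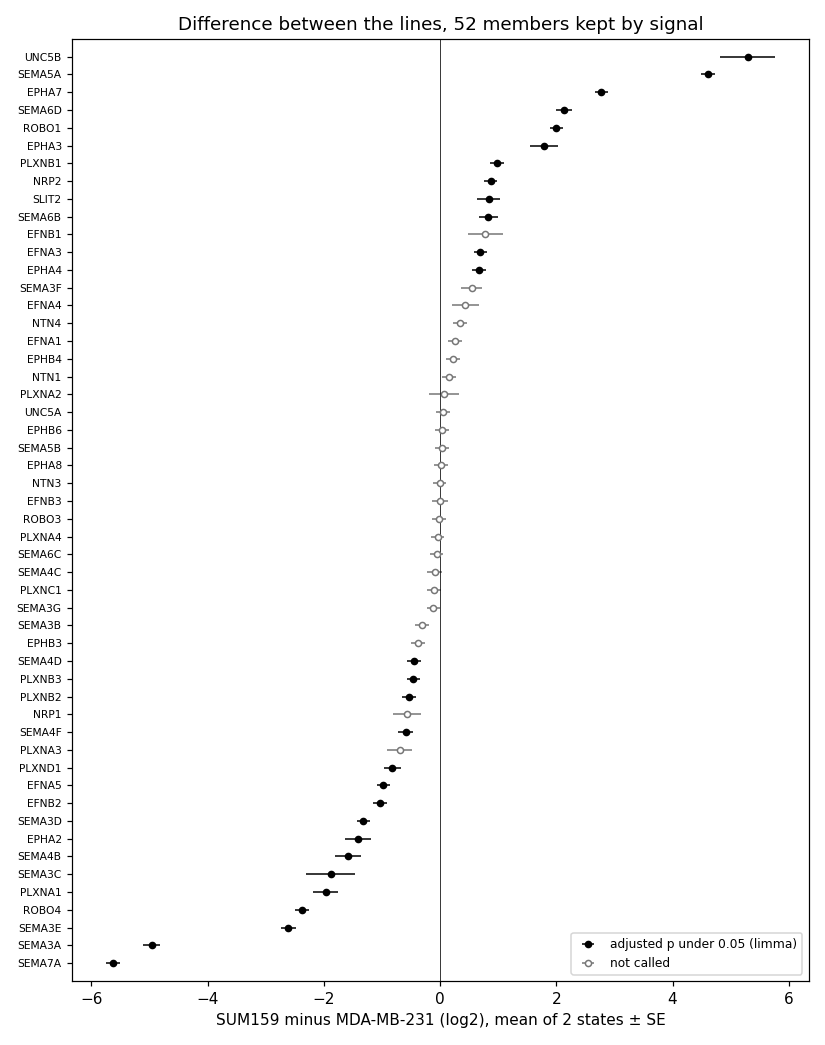
SUM159 minus MDA-MB-231 difference (log2, x axis; mean of the 2 states ± limma SE) of the 52 kept members, ordered from the highest at the top; filled points had an adjusted p under 0.05. The values run from 5.29 for UNC5B to -5.63 for SEMA7A, and 24 members, between -0.69 and 0.78, were not called. EPHA3 and EPHA7, kept through their SUM159 signal alone, are filled but serve as a description.

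Of the 4 widest contrasts, 3 were those of semaphorin genes. SEMA7A, the gene of a lipid-anchored semaphorin that also acts through integrins, had 4.17 and 4.23 on the induced and control SUM159 arrays, against 9.87 and 9.79 on the induced and control MDA-MB-231 arrays. This is a difference of -5.63 ± 0.12 (SE; limma adjusted p = 0.00144). SEMA5A, which encodes a transmembrane semaphorin with thrombospondin repeats, ran the other way, with 8.95 and 8.79 in SUM159 against 4.27 and 4.26 in MDA-MB-231 (4.61 ± 0.12, SE; limma adjusted p = 0.00158). In its low line each gene lay just above the cutoff of 4.035, at a level not shown to be above background, so no fold is given.

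Of the 7 class 3 semaphorins, 4 were called and all 4 were lower in SUM159. SEMA3A, the classical axon-repelling ligand of neuropilin-1, had 4.26 and 4.43 on the induced and control SUM159 arrays, against 9.39 and 9.23 in MDA-MB-231. SEMA3E, a ligand that binds plexin-D1 directly, had 4.99 and 5.21 in SUM159, against 7.72 and 7.70 in MDA-MB-231. SEMA3D had 4.46 and 4.30 in SUM159, against 5.82 and 5.58 in MDA-MB-231, and SEMA3C, whose values are given above, differed by -1.89 ± 0.42 (SE; limma adjusted p = 0.0355). The SEMA3C call was lost without the induced MDA-MB-231 array (limma adjusted p = 0.152), without the control MDA-MB-231 array (limma adjusted p = 0.119) and with no filter on low signal (limma adjusted p = 0.085). In each of these genes the arrays of the 2 lines did not overlap, which nearly follows from their being called and adds no support.

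These 4 genes are neighbours on chromosome 7 in the RefSeq annotation of GRCh38.p14, whereas the 3 class 3 genes that were not called, SEMA3B, SEMA3F and SEMA3G, lie on chromosome 3. SEMA3E, SEMA3A and SEMA3D follow each other with 0 protein-coding genes between them, and 3 (HGF, CACNA2D1 and PCLO) lie between SEMA3C and SEMA3E. The values of these 3 were looked up after those of the semaphorins were seen. CACNA2D1, for a calcium channel subunit, had 4.01 and 4.12 in SUM159, against 5.70 and 5.65 in MDA-MB-231. PCLO, for a presynaptic scaffold protein, had 4.26 and 4.0 in SUM159, against 5.78 and 5.73 in MDA-MB-231. HGF was below the cutoff on every array, at 3.35 to 3.44. Of the flanking genes, GNAT3, CD36 and GRM3 were not kept, and ELAPOR2 was higher in SUM159, with 8.08 and 8.52 against 6.69 and 6.62 in MDA-MB-231. The copy number of the region was not tested.

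Promoter sequences are shown for 2 semaphorin genes with opposite contrasts, SEMA7A and SEMA5A, and for 2 of the chromosome 7 neighbours, SEMA3E and SEMA3C. Each is the minus-strand RefSeq window of 300 bases on GRCh38.p14, 250 before and 50 after the annotated start, 5′ to 3′, with CG dinucleotides in capitals. The positions are chr15:74433909-74434208, chr5:9546026-9546325, chr7:83649090-83649389 and chr7:80922340-80922639.
SEMA7A: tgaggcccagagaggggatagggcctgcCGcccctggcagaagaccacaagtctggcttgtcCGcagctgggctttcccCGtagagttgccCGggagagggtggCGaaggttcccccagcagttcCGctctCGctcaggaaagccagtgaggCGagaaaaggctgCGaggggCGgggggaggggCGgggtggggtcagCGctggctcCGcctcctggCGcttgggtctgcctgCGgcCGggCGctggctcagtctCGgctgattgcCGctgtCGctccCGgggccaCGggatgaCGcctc
SEMA5A: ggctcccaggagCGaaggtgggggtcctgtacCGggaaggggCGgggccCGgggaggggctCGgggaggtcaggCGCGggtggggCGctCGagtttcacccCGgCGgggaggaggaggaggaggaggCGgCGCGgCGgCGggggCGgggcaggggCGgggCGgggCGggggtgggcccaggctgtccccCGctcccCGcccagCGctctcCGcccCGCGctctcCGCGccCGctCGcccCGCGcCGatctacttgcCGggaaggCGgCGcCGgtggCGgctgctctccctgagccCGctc
SEMA3E: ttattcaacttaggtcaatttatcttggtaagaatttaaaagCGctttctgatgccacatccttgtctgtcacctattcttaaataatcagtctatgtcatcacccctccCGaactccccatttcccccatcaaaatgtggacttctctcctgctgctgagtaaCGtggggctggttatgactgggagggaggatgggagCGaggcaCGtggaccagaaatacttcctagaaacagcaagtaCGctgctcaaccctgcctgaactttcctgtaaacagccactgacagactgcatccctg
SEMA3C: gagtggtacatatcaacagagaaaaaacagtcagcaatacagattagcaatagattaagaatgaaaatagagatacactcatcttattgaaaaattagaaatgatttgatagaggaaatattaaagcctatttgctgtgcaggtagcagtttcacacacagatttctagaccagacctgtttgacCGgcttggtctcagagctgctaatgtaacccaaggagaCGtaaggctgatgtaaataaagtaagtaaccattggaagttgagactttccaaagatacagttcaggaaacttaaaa
The windows hold 23, 39, 6 and 2 CG dinucleotides for SEMA7A, SEMA5A, SEMA3E and SEMA3C. Across 15843 protein-coding promoters of the same length the median was 22, with 3 at percentile 10 and 40 at percentile 90. The 57 members with a window had a median of 21. The motif GGGCGG, read on both strands with overlaps counted, occurs 3 times in the SEMA7A and 7 times in the SEMA5A window and not in the other two. It was found in 44 of the 57 member windows (77.2%) and in 58.5% of all. TATAAA on either strand was in 1 member window (1.75%) and in 9.63% of all. These are counts of letters, and no binding or methylation was measured.

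Class 4 to 7 genes other than these divided by line. SEMA6D, listed above, was higher in SUM159 by 2.13 ± 0.14 (SE; limma adjusted p = 0.00371), and SEMA6B by 0.83 ± 0.16 (SE; limma adjusted p = 0.0256). Without the induced MDA-MB-231 array the limma adjusted p was 0.0536 for SEMA6D and 0.11 for SEMA6B, and without the control MDA-MB-231 array it was 0.111 for SEMA6B. SEMA4B, for a transmembrane class 4 member, had 5.89 and 5.40 in SUM159, against 7.11 and 7.35 in MDA-MB-231 (limma adjusted p = 0.0131, and 0.0514 without the control MDA-MB-231 array). SEMA4D and SEMA4F were also called lower in SUM159, with differences of -0.45 and -0.59, but in 0 of the 4 fits with an array left out (limma adjusted p of 0.0625 to 0.11 and of 0.0538 to 0.112). In all, 3 of the 10 kept members were higher and 4 lower in SUM159.

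Among receptors of semaphorins, PLXNA1 was lower in SUM159 (-1.97 ± 0.22, SE; limma adjusted p = 0.00786) and PLXNB1 higher by 0.97 ± 0.12 (SE; limma adjusted p = 0.00994). PLXND1, the gene for the plexin that SEMA3E binds, had 5.32 and 4.99 in SUM159, against 5.97 and 5.98 in MDA-MB-231, and was called in 2 of the 4 fits with an array left out. PLXNB2 and PLXNB3 were called lower in SUM159, with differences of -0.53 and -0.46, but in 0 of those 4 fits (limma adjusted p of 0.0604 to 0.131 and of 0.0762 to 0.175). Of the neuropilins, NRP2 was higher in SUM159 by 0.87 ± 0.12 (SE; limma adjusted p = 0.0116), while NRP1 differed by -0.57 ± 0.24 (SE; limma adjusted p = 0.142).

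Among the kept netrin and UNC5 members, only the receptor gene UNC5B was called. UNC5B was higher in SUM159 by 5.29 ± 0.47 (SE; limma adjusted p = 0.0057), and even the induced SUM159 array, at 9.72, stood well above the MDA-MB-231 arrays at 5.30 and 5.36. The 3 kept netrin genes were not called, with NTN4 at a difference of 0.34 ± 0.12 (SE; limma adjusted p = 0.0950). Among other netrin receptors, DCC was below the cutoff on every array (3.33 to 3.48), and NEO1, for neogenin, had 5.62 and 6.07 in SUM159 against 8.19 and 8.26 in MDA-MB-231; these 2 genes were picked after their values were seen.

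ROBO1 was higher in SUM159 by 2.0 ± 0.11 (SE; limma adjusted p = 0.00309). ROBO4, a receptor gene best known from endothelium, had 4.18 and 4.30 in SUM159, against 6.47 and 6.75 in MDA-MB-231. The endothelial markers CDH5, TIE1 and VWF stood at 3.64 to 3.94 in MDA-MB-231, below the cutoff, and PECAM1 at 4.04 in induced and 4.24 in control cells. ROBO3, the direct neighbour of ROBO4 on chromosome 11, lay between 4.41 and 4.53 on all arrays and was not called. SLIT2 was higher in SUM159 by 0.84 ± 0.19 (SE; limma adjusted p = 0.0388). The SLIT2 call was lost without the induced SUM159 array, without either MDA-MB-231 array (limma adjusted p of 0.112 to 0.285 in these 3 fits) and with no filter on low signal (limma adjusted p = 0.077).

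In the Eph system the widest line contrast was that of a receptor gene. EPHA7 had 6.65 and 6.63 on the induced and control SUM159 arrays, against 3.89 and 3.84 in MDA-MB-231, where it lay below the cutoff. EPHA3 likewise had 4.89 and 5.64 in SUM159, against 3.51 and 3.44 in MDA-MB-231. These 2 genes were kept through their SUM159 signal alone, so their values are given as a description with no test and no fold. EPHA4 was higher in SUM159 by 0.67, but was called in 1 of the 4 fits with an array left out. EPHA2 was lower (-1.42 ± 0.22, SE; limma adjusted p = 0.0168), with a limma adjusted p of 0.0531 without the induced and 0.0659 without the control MDA-MB-231 array. Of the ephrins, EFNA5 and EFNB2 were lower in SUM159, with differences of -0.97 and -1.03, and EFNA3 was higher by 0.69. With 1 array left out, EFNB2 was called in 4 of 4 fits, EFNA3 in 3 and EFNA5 in 2. EFNA4, EFNA3 and EFNA1 are direct neighbours on chromosome 1, and of these EFNA3 alone was called.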

How the data were processed

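Per the labels' protocols, total RNA extracted with Trizol was labelled with biotin and read on Affymetrix arrays. The authors' deposited table holds 1 log2 signal for each of 70523 probesets on 4 arrays. The tools, per the submitters' processing notes, were Transcriptome Analysis Console and Affymetrix Expression Console. Neither summarisation nor normalization was given in the sources used here, so a shift common to most genes of 1 array may have been removed. No further scaling was applied. The platform annotation gave 1 symbol to 23781 probesets, and the rest were not used for genes. The brightest probeset stood for a gene. All 67 member symbols matched RefSeq (GRCh38.p14). Probes shared between close family members cannot be checked here.

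Within a line, a difference is induced minus control, counted at or past 1.5-fold (0.585), without a test. Limma 3.58.1 (lmFit, eBayes, R 4.3.3) was fitted on 14418 kept genes, two-sided, with 1 residual degree of freedom. It was also run on simulated data with independent noise. In those data the lines did not differ in their response beyond noise, so that run is no check of the calls here. Arrays limit precision by their number, 4. The members, gene lists and rules were chosen with earlier results of these data known. Values are given for members past 1.5-fold, the 10 most different per direction between the lines, and up to 3 of the brightest in other families; further members are named where their values were seen to bear on a comparison. Alternatives were other scalings, cutoffs, probeset rules, blocks and left-out arrays.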

Additional observations from a re-analysis of the deposited data

Results flagged for a closer look

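Opposite differences in the 2 lines were seen for 8 of 52 kept members (15.4%), against 9.5% of all kept genes. Each was wider than 1 robust SD of the probesets below the cutoff (0.193 in SUM159 and 0.178 in MDA-MB-231). This is a low bar, since the robust SD over all kept genes was 0.252 in SUM159 and 0.208 in MDA-MB-231. EPHA2, at -0.21 in MDA-MB-231, was close to the latter. With 1 array per group the difference between the lines was not tested. SUM159 minus MDA-MB-231, the induced minus control differences stood apart by 1.08 for EFNB1, 0.90 for PLXNA2, 0.77 for EFNA4, 0.73 for EPHA2, 0.73 for SEMA4B, 0.69 for PLXNA1 and 0.67 for PLXNA3, which were higher in induced SUM159 and lower in induced MDA-MB-231. SEMA3C ran the other way, at -1.53. Of the 4 class A plexins, 3 are in this group.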

How the results depend on the processing

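With a 2-fold in place of a 1.5-fold threshold, 1 member (NRP1) was higher and 2 (UNC5B and SEMA3C) lower in induced SUM159. Median centring of the arrays gave 6 higher, with EFNA4 and EPHA2 added, and 4 lower; it moved the median difference of all kept genes by 0.07 for SUM159 and by 0.03 for MDA-MB-231, and turned the members' SUM159 median to 0.05 (0.031 after quantile normalization). Of all kept genes past 1.5-fold in SUM159, 56.9% were higher as deposited, 71.7% after centring and 47.8% after quantile normalization; in MDA-MB-231 the shares were 68.3%, 77.9% and 60.7%. The 4 higher and 4 lower members were the same genes after quantile normalization. In MDA-MB-231 the count of members past 1.5-fold was 0 under every alternative run, and over both lines limma called 0 members under every alternative. A higher cutoff, the 75th percentile, kept 24 members, of which 7 rather than 12 were called higher in SUM159 than in MDA-MB-231. Leaving out each array in turn gave 6 to 14 members called higher and 7 to 13 lower. The calls among all kept genes were not counted for these fits, so whether member calls were more or less stable cannot be told. The members past 1.5-fold in SUM159 and the 20 with the widest line contrasts changed sign under none of the alternatives run. This was nearly fixed in advance. In all 20 line contrasts both arrays of 1 line lay above both arrays of the other, so no left-out array could turn the sign. Each member had 1 probeset, so only centring and quantile normalization can move its induced minus control difference. PLXNA2, at 0.63 in SUM159 as deposited, had 0.70 after centring and 0.60 after quantile normalization. The main fits paired the arrays through a block for cell line or for state; without the block limma called 0 members over both lines, and 12 higher and 17 lower in SUM159. Low members cannot be judged, since the files give no background or detection value for a probeset.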
